A study of Mus musculus with 36 samples.

Results

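The comparison set the cochlea of adrenalectomized (ADX) mice at CT16, in the early active phase of these nocturnal animals, against the cochlea of ADX mice at CT04, in the early rest phase. It rests on 6 of the 36 libraries of the series, chosen by their labels for surgery and circadian time: 3 from ADX mice at CT16 and 3 from ADX mice at CT04. All mice were CBA/Sca aged 12 weeks, and the tissue was the cochlea, where the inner ear turns sound into nerve signals. The other libraries came from ADX mice at 4 other times and from sham-operated mice, which kept their adrenal glands, at the same 6 times with 3 libraries each. Adrenalectomy removes the adrenal source of glucocorticoids along with other adrenal hormones. The sources used here do not say whether hormones were replaced, or whether a library holds tissue of 1 animal or of several.

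The circadian clock is a loop of transcription factors that runs in most tissues. BMAL1 (the product of Arntl) with CLOCK or NPAS2 switches on the Period and Cryptochrome genes, whose products then repress their own transcription, while the REV-ERB and ROR receptors act on Arntl. Daily signals from outside the tissue, such as glucocorticoids and body temperature, can set or drive parts of this rhythm, and the inner ear is known to hold such a clock. The comparison asks which differences between CT16 and CT04 are present in mice without adrenals.

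The 3 ADX CT16 libraries held 21908906 to 27965548 counts each and the 3 ADX CT04 libraries 21673214 to 27509874 counts. Levels are given as CPM, the counts of a gene scaled to the library's size, and a gene is called when edgeR's quasi-likelihood test gave an adjusted p under 0.05 over all tested genes. A log2 fold change is CT16 over CT04, so a positive one means higher at CT16, and it is followed by its standard error (SE). The hair cell genes Myo7a, Slc26a5 and Otof, the fibrocyte gene Coch and the neurofilament gene Nefl were detected in all 6 libraries. Tissue around the cochlea contributed too: the summed CPM of 15 skeletal muscle markers was 138.7, 352.8 and 177.3 in ADX CT16 replicates 1, 2 and 3, against 156.6, 176.0 and 156.0 in ADX CT04. Replicate 2 of ADX CT16 thus stood apart for muscle, and a fit with a muscle score as a covariate called 1807 genes in place of the 1831 given below. Among the sham libraries, replicate 3 at CT16 held 1542 CPM of pituitary markers, against at most 15.54 CPM in the 6 ADX libraries.

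At CT16 the ADX cochlea held more transcript of the clock repressors Per2, Per1 and Cry1, of 17 of 19 heat shock and cytosolic chaperone genes and 17 of 24 endoplasmic reticulum genes, and of several genes known to be induced by glucocorticoids. It held less transcript of the clock genes Nr1d1, Npas2 and Arntl, of the cold-inducible gene Cirbp and of some collagens. Of 22556 tested genes 1831 were called (8.12%), 1174 of them higher at CT16 (5.2%) and 657 lower (2.91%). Among the 16724 protein-coding genes 1278 were called (7.64%), 696 higher (4.16%) and 582 lower (3.48%). The count moved with single libraries: it was 710 without ADX CT16 replicate 3, 792 without ADX CT04 replicate 1, 1032 without ADX CT16 replicate 1 and 1091 without ADX CT04 replicate 3. Fitted on the 6 libraries alone, without the spread of the other 30, the test called 833 genes.

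The promoters of 6 genes described below are shown with the letters that known clock and stress factors recognise, as examples of called genes that carry each motif. They are RefSeq sequences of build GRCm38.p6, running from 250 bases before to 50 bases after an annotated start. In Hspa5 (chr2:34771840-34772139, plus strand) and Hsp90b1 (chr10:86705395-86705694, minus strand) the capitals mark the endoplasmic reticulum stress element, CCAAT and CCACG with 9 bases of any kind between them, on either strand. In Hspb1 (chr5:135887669-135887968, plus strand) they mark pairs of heat shock half-sites, GAANNTTC. In Cry1 (chr10:85185005-85185304, minus strand) they mark the E-box CACGTG bound by BMAL1 complexes, in Arntl (chr7:113207261-113207560, plus strand) the core TAGGTCA bound by ROR and REV-ERB receptors, and in Cyp2a5 (chr7:26835089-26835388, plus strand) the D-box TTATGNAA bound by DBP, TEF and HLF, here on the opposite strand.
Hspa5: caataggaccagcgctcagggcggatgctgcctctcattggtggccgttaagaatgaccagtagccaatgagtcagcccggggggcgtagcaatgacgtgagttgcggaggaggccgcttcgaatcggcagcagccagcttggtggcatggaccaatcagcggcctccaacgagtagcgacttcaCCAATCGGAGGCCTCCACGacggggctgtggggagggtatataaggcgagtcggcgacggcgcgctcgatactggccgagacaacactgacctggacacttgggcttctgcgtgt
Hsp90b1: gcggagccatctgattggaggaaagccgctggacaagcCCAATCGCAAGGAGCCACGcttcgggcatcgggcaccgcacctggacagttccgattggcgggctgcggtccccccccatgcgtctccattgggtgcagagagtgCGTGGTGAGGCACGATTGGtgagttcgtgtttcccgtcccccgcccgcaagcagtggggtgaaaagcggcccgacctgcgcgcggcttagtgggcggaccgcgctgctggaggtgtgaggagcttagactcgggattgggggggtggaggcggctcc
Hspb1: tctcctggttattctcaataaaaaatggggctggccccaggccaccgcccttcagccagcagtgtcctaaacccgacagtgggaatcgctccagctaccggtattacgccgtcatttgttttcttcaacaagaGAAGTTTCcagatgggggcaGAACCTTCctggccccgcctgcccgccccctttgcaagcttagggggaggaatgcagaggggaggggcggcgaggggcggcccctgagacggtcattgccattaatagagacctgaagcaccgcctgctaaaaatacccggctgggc
Cry1: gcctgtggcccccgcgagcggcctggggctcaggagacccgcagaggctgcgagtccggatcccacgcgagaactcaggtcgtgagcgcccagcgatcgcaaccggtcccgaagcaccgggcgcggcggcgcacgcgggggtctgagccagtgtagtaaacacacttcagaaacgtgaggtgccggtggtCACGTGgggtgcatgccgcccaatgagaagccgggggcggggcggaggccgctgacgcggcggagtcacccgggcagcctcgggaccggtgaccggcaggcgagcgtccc
Arntl: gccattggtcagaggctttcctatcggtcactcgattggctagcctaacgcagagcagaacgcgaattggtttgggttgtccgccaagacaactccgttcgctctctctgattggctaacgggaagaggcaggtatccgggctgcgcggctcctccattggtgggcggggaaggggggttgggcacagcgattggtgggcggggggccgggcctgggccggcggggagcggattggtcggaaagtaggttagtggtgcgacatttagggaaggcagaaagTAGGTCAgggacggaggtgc
Cyp2a5: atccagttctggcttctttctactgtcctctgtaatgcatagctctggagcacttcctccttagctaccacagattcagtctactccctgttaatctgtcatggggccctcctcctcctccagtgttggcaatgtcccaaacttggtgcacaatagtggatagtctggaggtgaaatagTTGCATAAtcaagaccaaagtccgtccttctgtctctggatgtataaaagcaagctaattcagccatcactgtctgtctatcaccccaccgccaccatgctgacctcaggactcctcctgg

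Over the gene lists, 8 of 21 endoplasmic reticulum genes with a promoter entry held the endoplasmic reticulum stress element, against 0.137% of all 27025 genes. These were Hspa5, Hsp90b1, Calr, Canx, Pdia6, Dnajc3, Creld2 and Syvn1, of which all but Canx and Syvn1 were called. Of the whole list 17 of 24 were called. The heat shock half-site pair was present in 11 of 15 heat shock and chaperone genes, against 9.04% of all genes. All carriers but Bag3 and Hspb8 were called, and so were all members of this list without a match or a promoter entry. The same pair was present in 5 of 19 cell cycle and 4 of 17 oxidative phosphorylation genes, lists with 0 calls. It was present in 0 of 21 endoplasmic reticulum genes. The D-box was found in 2 of 4 period and cryptochrome genes (Per1 and Per3) and 2 of 14 P450 list genes (Cyp2a5 and Cyp27a1), against 3.99% of all genes. The E-box was found in 2 of 4 period and cryptochrome genes (Per1 and Cry1), against 8.09% of all genes. It was also found in Tef, in 2 of 2 accessory repressor genes (Bhlhe41 and Ciart) and in 1 of 14 P450 list genes (Nr1i3). In other lists the E-box was found in 6 of 25 glucocorticoid-induced genes, Per1 among them, and in 3 of 17 ribosomal protein genes. No other clock gene with a promoter entry held either motif. The glucocorticoid element, GNACA and TGTNC with 3 bases between them, was found in 4 of 25 glucocorticoid-induced genes (Sgk1, Mt1, Fam107a and Map3k6), against 0.537% of all genes, and of these Mt1 was called. The motifs were searched on both strands, no overlap between different motifs was removed, and a match is a description of letters only.

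Of the 18 core clock genes reported, 3 were called higher at CT16 (Per2, Cry1 and Per1) and 3 lower (Nr1d1, Npas2 and Arntl). Over all tested genes 5.2% were called higher and 2.91% lower. Per2, a repressor of BMAL1 complexes (chromosome 1, 91415982 to 91459324), had 84.3, 70.5 and 86.7 CPM at CT16, against 34.0, 24.6 and 39.4 CPM at CT04. Every CT16 library lay above every CT04 library, by a log2 fold change of 1.30 ± 0.14 (SE; adjusted p = 1.1e-06). Cry1, a second repressor, had 25.7, 23.0 and 26.1 CPM at CT16 and 15.5, 12.5 and 16.13 CPM at CT04 (0.77 ± 0.11, adjusted p = 5.6e-05). Per1 had 81.4, 75.0 and 77.0 CPM at CT16 and 44.5, 48.1 and 47.5 CPM at CT04 (0.74 ± 0.15, adjusted p = 0.00216), again with no overlap between the libraries of the 2 times. Among all tested genes 15.6% were higher and 11.7% lower at CT16 with no overlap, whether called or not.

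The other 3 called clock genes were lower at CT16. Nr1d1, which encodes the repressor REV-ERB alpha (chromosome 11, 98767932 to 98775333), had 36.8, 40.0 and 27.8 CPM at CT16 and 81.6, 82.1 and 88.9 CPM at CT04 (log2 fold change -1.28 ± 0.22, adjusted p = 6.6e-04). It overlaps Thra in the annotation, so some of its reads may belong to that gene. Npas2 had 4.55, 7.47 and 5.02 CPM at CT16 against 10.7, 18.3 and 11.8 CPM at CT04 (-1.27 ± 0.24, adjusted p = 0.00134). Arntl had 10.8, 15.0 and 13.4 CPM at CT16 against 20.01, 26.87 and 18.97 CPM at CT04 (-0.75 ± 0.15, adjusted p = 0.00237). The CT16 and CT04 libraries did not overlap for any of the 3.

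The other 12 clock genes did not pass: Clock, Per3, Cry2, Nr1d2, Rora, Dbp, Tef, Hlf, Nfil3, Bhlhe40, Bhlhe41 and Ciart. Clock had a log2 fold change of -0.05 ± 0.07 and Cry2 of 0.01 ± 0.07. In several of the others replicate 2 of ADX CT04 stood apart. Dbp, an activator of D-box genes, had 37.7, 37.1 and 33.2 CPM at CT16, while the CT04 libraries held 58.0, 27.4 and 54.4 CPM. Per3 had 104, 102 and 94.8 CPM at CT16 and 102, 54.5 and 89.6 CPM at CT04. Tef, Nr1d2 and Bhlhe41 were likewise lowest in that library (153, 80.8 and 33.4 CPM), while Arntl and Npas2 were highest in it among the CT04 libraries. Without this library the called clock genes were 3 higher and 4 lower, and without any 1 of the other 5 they were 3 higher and 3 lower.

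**Figure D1:**
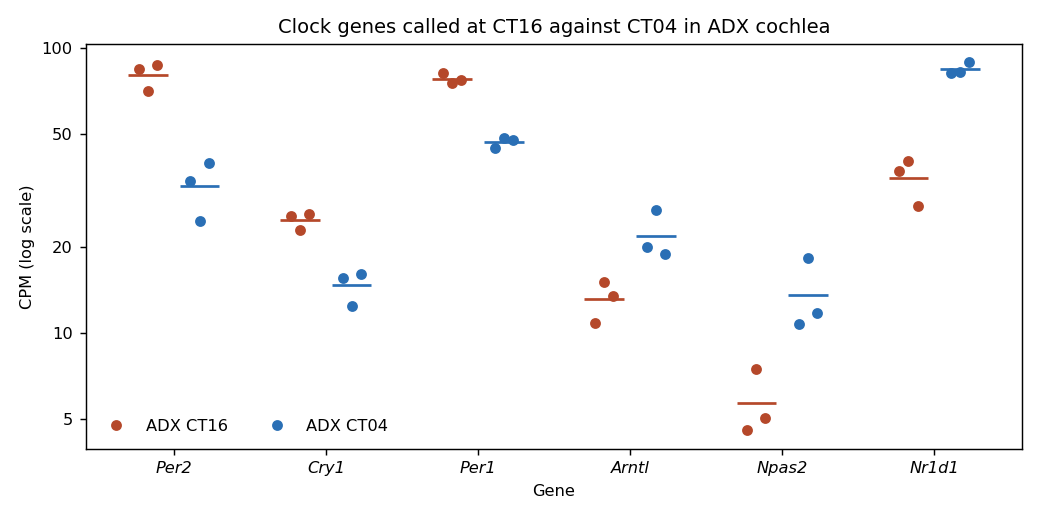
CPM (log axis) of 6 called clock genes in each ADX library, CT16 in red and CT04 in blue, with points for libraries and a line for the mean of 3. Per2, Cry1 and Per1 lie higher at CT16, and Arntl, Npas2 and Nr1d1 lie lower, with no overlap between the times.

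In sham cochleae, which share no library with the ADX comparison, 7 of these 18 clock genes were called (4 higher, 3 lower; 5.28% of all tested genes were called in sham). The sign agreed in 17 of 18, and in 12 of 18 the change was smaller in size in ADX, with a median absolute log2 fold change of 0.30 in ADX and 0.35 in sham. Per2 had a log2 fold change of 1.30 in ADX against 1.91 in sham, Nr1d1 -1.28 against -1.90, Npas2 -1.27 against -1.70 and Per3 0.29 against 0.90. Per1 went the other way, at 0.74 in ADX and 0.43 in sham. The test of the difference itself called 0 of the 18, so none of these differences between ADX and sham is shown.

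Over all genes, edgeR's test of the difference between ADX and sham called 0 of 22556 genes, as did DESeq2 and limma-voom. At an unadjusted p under 0.05 there were 1053 genes in edgeR, 849 in DESeq2 and 1075 in limma-voom, and the smallest adjusted p in edgeR was 0.835. In sham 1190 genes were called, 576 higher (2.55%) and 614 lower (2.72%) at CT16. The ADX and sham calls shared 539 genes, all in the same direction, which is 29.4% of the ADX calls and 45.3% of the sham calls. Of the 1831 genes called in ADX, 1767 (96.5%) had the same sign in sham.

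Chaperones of the cytosol rose together at CT16. They refold damaged proteins and are induced by the heat shock factor HSF1. Of 19 listed genes 17 were called higher and 0 lower, beside 5.2% of all genes called higher, with a median log2 fold change of 0.41 against 0.00 over all tested genes. Hspb1, a small heat shock protein (chromosome 5, 135887919 to 135889563; promoter above), had 60.2, 47.3 and 53.0 CPM at CT16 and 25.1, 25.4 and 25.4 CPM at CT04. The 3 CT04 libraries were nearly equal and all CT16 libraries lay well above them (1.08 ± 0.14, adjusted p = 2.8e-05). Hsph1, a co-chaperone of HSP70 proteins, had 234, 175 and 236 CPM at CT16 against 105, 106 and 118 CPM at CT04 (0.97 ± 0.11, adjusted p = 4.9e-06). Hspa8, the constitutive HSC70, had 829, 792 and 934 CPM at CT16 against 498, 545 and 584 CPM at CT04 (0.65 ± 0.07, adjusted p = 1.1e-06).

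The inducible HSP70 gene Hspa1b had 14.4, 12.6 and 19.5 CPM at CT16 and 3.54, 5.42 and 5.57 CPM at CT04 (1.67 ± 0.24, adjusted p = 9.6e-05). Its near-identical copy Hspa1a had a log2 fold change of 1.16 ± 0.20. Reads of this pair can be split between the copies by the counting, so their single values are uncertain. The co-chaperones of HSP90 followed, with Stip1 at 0.48 ± 0.06 and Ahsa1 at 0.40 ± 0.05, as did HSP90 itself (Hsp90aa1 0.54, Hsp90ab1 0.40). The mitochondrial pair Hspd1 and Hspe1 rose by 0.24 and 0.28, and Hsf1 by 0.16. Bag3 (0.20 ± 0.09) and Hspb8 (0.17 ± 0.12) did not pass. In 17 of the 19 genes CT16 had the highest mean of the 6 ADX times, against 20.8% of all tested genes.

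Chaperones and enzymes of the endoplasmic reticulum, where secreted and membrane proteins fold, also rose. Of 24 listed genes 17 were called higher and 0 lower, beside 5.2% of all genes called higher, with a median of 0.29. Hspa5, which encodes the luminal HSP70 protein BiP (chromosome 2, 34771970 to 34777547; promoter above), had 794, 706 and 704 CPM at CT16 and 404, 444 and 452 CPM at CT04. Its log2 fold change of 0.76 ± 0.07 had the smallest adjusted p of all tested genes, 3.1e-07. Manf, a secreted survival factor of stressed cells, had 84.0, 79.1 and 82.2 CPM at CT16 against 49.6, 58.4 and 54.1 CPM at CT04 (0.60 ± 0.07). Hsp90b1, the luminal HSP90 protein (promoter above), had 864, 775 and 836 CPM at CT16 against 630, 586 and 629 CPM at CT04 (0.42 ± 0.08, adjusted p = 0.00128). The CT16 and CT04 libraries of these 3 genes did not overlap. Hyou1 rose by 0.53 ± 0.07, Sdf2l1 by 0.71 ± 0.10, and the transcription factor gene Xbp1, which drives such genes, by 0.41 ± 0.06. Atf6, which encodes 1 sensor of the pathway, was not called (log2 fold change 0.01 ± 0.04). The transcription factor genes Atf4 (0.01 ± 0.05) and Ddit3 (0.11 ± 0.06) were not called either.

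**Figure D2:**
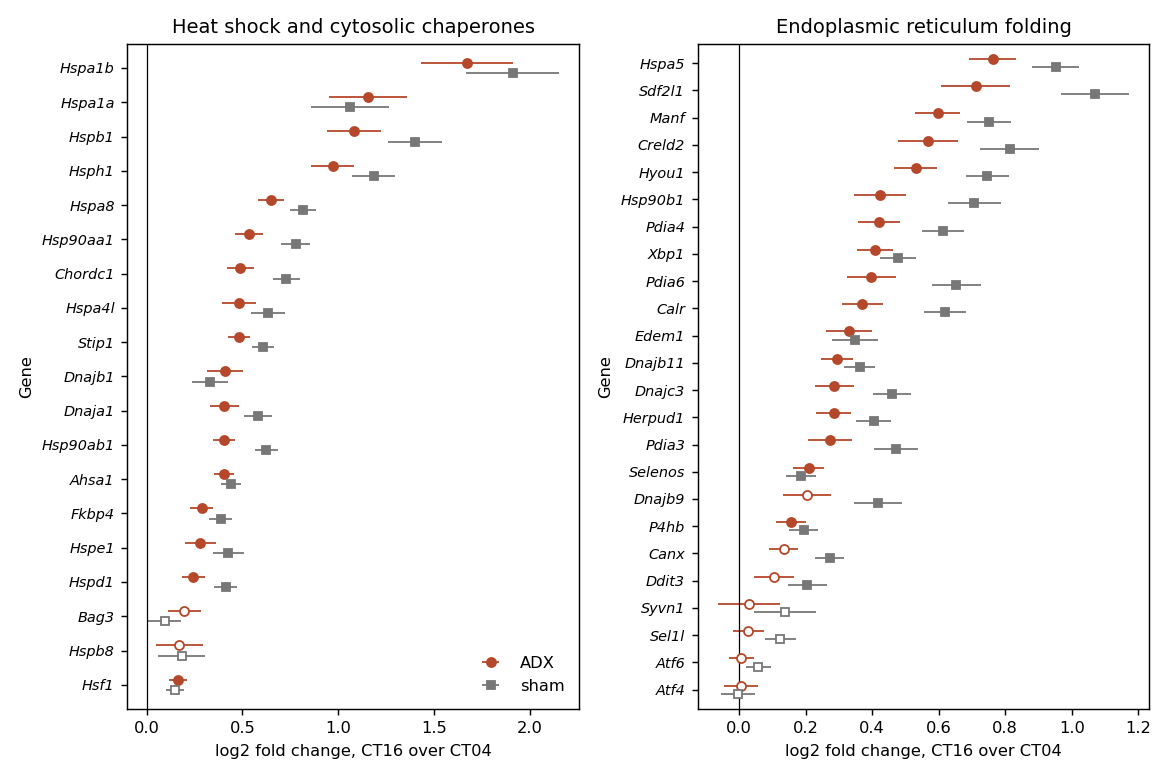
Log2 fold changes of CT16 over CT04 with SE bars for 19 heat shock and cytosolic chaperone genes (left) and 24 endoplasmic reticulum genes (right), ADX as circles above sham as squares, filled where the adjusted p was under 0.05. Of the ADX points 17 are filled in each panel, all on the positive side.

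Both chaperone lists moved in sham as well, with 16 of 19 and 20 of 24 called higher and medians of 0.61 and 0.44. Over all tested genes 2.55% were called higher in sham. The difference, ADX minus sham, was negative in 15 of 19 and 22 of 24 genes, and 3 of the 19 and 10 of the 24 reached an unadjusted p under 0.05, beside 4.67% of all tested genes. None of them passed adjustment over all genes. Leaving out 1 ADX library gave 13 to 16 called heat shock genes and 15 or 16 called endoplasmic reticulum genes.

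The cold-inducible RNA-binding proteins fell, as a group of 2. Cirbp, induced by mild cooling (chromosome 10, 80165985 to 80172786), had 66.9, 74.5 and 58.0 CPM at CT16 and 128, 118 and 118 CPM at CT04 (-0.87 ± 0.11, adjusted p = 3.1e-05). Rbm3 had 135, 121 and 117 CPM at CT16 and 154, 158 and 161 CPM at CT04 (-0.34 ± 0.11, adjusted p = 0.0444), and it passed in only 1 of the 6 fits with a library removed. In the plots over the day Cirbp was at 66.5 ± 8.29 CPM at CT16 and 66.7 ± 9.93 CPM at CT20 in ADX, against 111 to 146 CPM at the other 4 times (means with SD, n = 3).

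**Figure D3:**
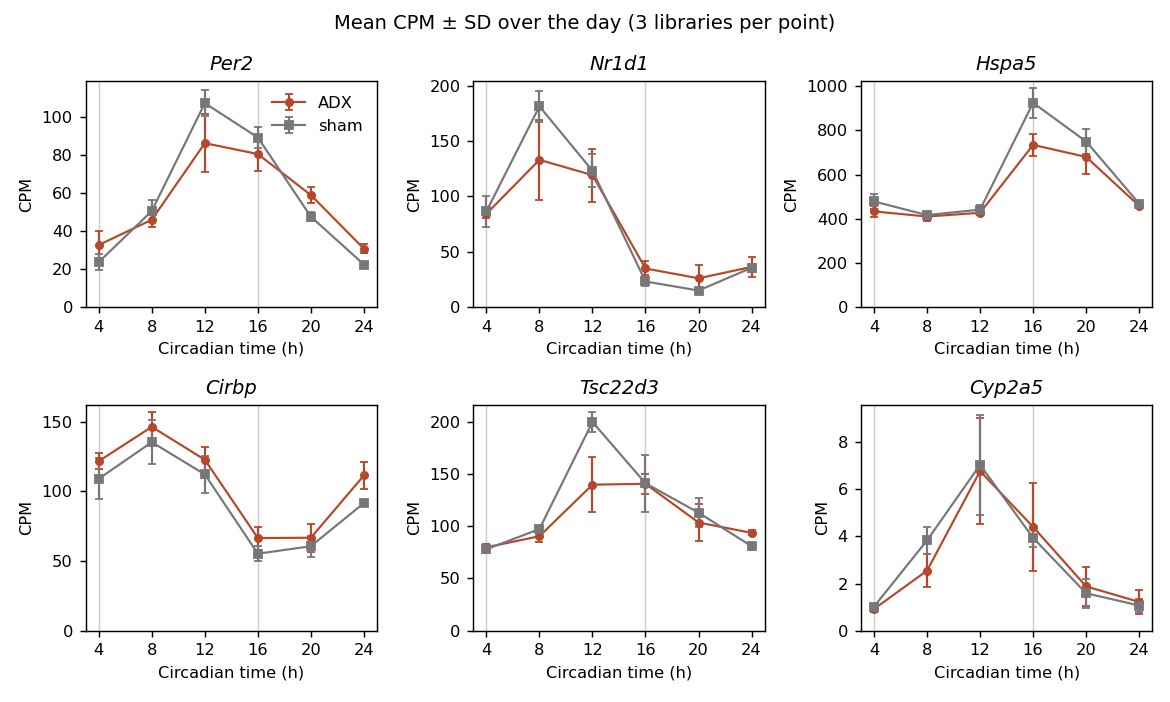
Mean CPM with SD (3 libraries per point) over 6 circadian times in ADX (circles) and sham (squares), with CT04 and CT16 marked by vertical lines. Hspa5 is highest at CT16 (735 CPM in ADX) and Per2 and Cyp2a5 at CT12, while Cirbp and Nr1d1 are low at CT16.

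Glucocorticoid-induced genes were examined because adrenalectomy removes the adrenal source of these hormones. Of 28 listed genes 12 were called higher at CT16 and 1 lower, beside 5.2% and 2.91% of all tested genes. Their median log2 fold change was 0.33. Tsc22d3, which encodes the anti-inflammatory protein GILZ (chromosome X, 140539528 to 140600659), had 147, 129 and 145 CPM at CT16 and 76.7, 83.0 and 79.9 CPM at CT04 (0.81 ± 0.12, adjusted p = 1.2e-04). Fkbp5, a co-chaperone that restrains the glucocorticoid receptor (chromosome 17, 28399094 to 28517527), had 67.6, 55.0 and 60.7 CPM at CT16 and 25.7, 39.9 and 25.5 CPM at CT04 (1.01 ± 0.22, adjusted p = 0.00517). Cebpd, a transcription factor of the acute phase response, had 17.4, 14.9 and 16.04 CPM at CT16 and 9.89, 10.8 and 10.7 CPM at CT04 (0.62 ± 0.13). The libraries of the 2 times did not overlap in any of these 3 genes.

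The transcription factor gene Zbtb16 had 44.5, 39.9 and 49.1 CPM at CT16, while the CT04 libraries held 12.9, 30.2 and 17.9 CPM (1.12 ± 0.32, adjusted p = 0.0301). This call held in only 2 of the 6 fits with a library removed. Tat, Sult1a1, Plin4, Lcn2, Per1, Cebpb, Mt1 and Errfi1 were the other members called higher, and Angptl4, an inhibitor of lipoprotein lipase, was the member called lower (-0.53 ± 0.14). Dusp1, a phosphatase of MAP kinases, did not pass (0.29 ± 0.11, adjusted p = 0.101), nor did Klf9, Sgk1 and Ddit4 (0.24, 0.12 and 0.22). The receptor genes did not pass either, with Nr3c1 at -0.04 ± 0.07 and Nr3c2 at -0.30 ± 0.10.

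**Figure D4:**
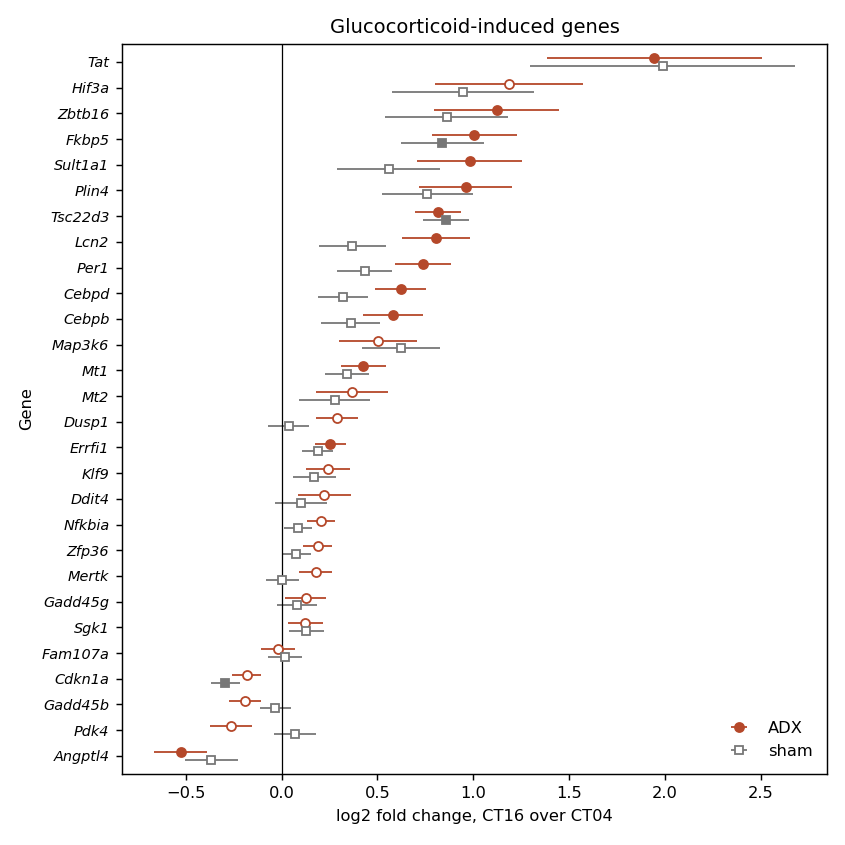
Log2 fold changes of CT16 over CT04 with SE bars for 28 glucocorticoid-induced genes, ADX as circles above sham as squares, filled where the adjusted p was under 0.05. Of the ADX points 12 are filled on the positive side and 1, Angptl4, on the negative side.

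In sham 2 of the 28 genes were called higher (Fkbp5 and Tsc22d3) and 1 lower (Cdkn1a), beside 2.55% and 2.72% of all tested genes. The 28 genes had a median of 0.23 in sham. In ADX 12 of the 28 had their highest mean at CT16, beside 20.8% of all tested genes, and in sham 3 of the 28 did. Tsc22d3 had 199.6 CPM at CT12 and 141 CPM at CT16 in sham, against 139.7 and 140.5 CPM in ADX. Counts of calls between CT16 and CT04 therefore do not measure the size of the change over the day. The difference between ADX and sham was not called for any member. At an unadjusted p under 0.05 there was 1 of the 28, beside 4.67% of all tested genes. The 12 higher calls in ADX fell to 5 and 6 without ADX CT04 replicates 1 and 3, and to 7 and 6 without ADX CT16 replicates 1 and 3, and were 11 without ADX CT04 replicate 2. Lcn2 is also a neutrophil marker. In the ADX CT04 libraries the summed neutrophil and macrophage markers were low, as described next, and the part of this in the glucocorticoid list was not tested.

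Neutrophil transcripts were higher at CT16 in ADX. Of 15 markers 10 were called higher and 0 lower, beside 5.2% and 2.91% of all tested genes. In sham 0 of 15 were called, beside 5.28% of all tested genes. Their summed level was 9628, 8233 and 8313 CPM in ADX CT16 and 6157, 5866 and 5524 CPM in ADX CT04. The 3 ADX CT04 sums were the lowest of the series, since the other 30 libraries held 6398 to 12600 CPM with a median of 8567 CPM. Sham CT16 held 8562, 9283 and 11680 CPM and sham CT04 8571, 9073 and 8325 CPM. In bulk tissue, fewer cells of a type and less RNA per cell cannot be told apart.

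The called markers were Lcn2, Mmp8, Ltf, Chil3, Cebpe, S100a8, Retnlg, S100a9, Mmp9 and Ngp, with log2 fold changes from 0.57 (Ngp) to 0.81 (Lcn2). Mmp9, a gelatinase, had 247, 249 and 262 CPM at CT16 and 171, 165 and 170 CPM at CT04 (0.58 ± 0.12, adjusted p = 0.00384). The other 5 did not pass, with Camp at 0.55 ± 0.19, Mpo at 0.19 ± 0.17, Elane at 0.19 ± 0.17, Prtn3 at 0.17 ± 0.17 and Ctsg at 0.10 ± 0.16. All 15 markers had their lowest ADX mean at CT04, against 18.5% of all tested genes, while in sham 2 of the 15 did. The difference between ADX and sham reached an unadjusted p under 0.05 in 6 of the 15, beside 4.67% of all tested genes. It was called in 0 of the 15. Leaving out 1 library gave 5 to 9 called markers, with 5 without ADX CT16 replicate 1 and 6 without ADX CT04 replicate 3.

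Other genes of myeloid cells were also higher at CT16. Fcgr4, an activating receptor for antibodies, had 7.82, 6.70 and 7.81 CPM at CT16 and 3.63, 4.01 and 3.93 CPM at CT04 (0.95 ± 0.15, adjusted p = 1.8e-04), against a log2 fold change of 0.14 in sham. Cxcr2, the receptor that guides neutrophils, had 61.6, 61.6 and 66.6 CPM at CT16 and 33.6, 34.2 and 35.1 CPM at CT04 (0.88 ± 0.14, adjusted p = 2.5e-04). Fpr1, a receptor for bacterial peptides, rose by 1.02 ± 0.15 and the lysozyme gene Lyz1 by 1.45 ± 0.23, and Ccr1 by 0.65 ± 0.15. Lyz1 rose in sham as well, from a mean of 9.20 CPM at CT04 to 15.28 CPM at CT16. In ADX its means at CT08 and CT12 were 6.80 and 6.69 CPM, beside 5.66 CPM at CT04. For none of these myeloid genes was the difference from sham called. The part of the low neutrophil and macrophage sums at ADX CT04 in their values was not tested. Of 11 macrophage markers 3 were called higher, beside 5.2% of all genes called higher. These were Lyz2, Cd163 and Cd14, while Csf1r and Adgre1 were at 0.11 ± 0.08 and 0.12 ± 0.10. The count was 1 without ADX CT04 replicate 1, ADX CT04 replicate 3 or ADX CT16 replicate 1. The macrophage sum was 2505, 2181 and 2165 CPM at CT16 and 1576, 1759 and 1594 CPM at CT04, where the lowest of the other 30 libraries held 1655 CPM.

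Of 20 NF-kB and cytokine genes 4 rose, beside 5.2% of all genes called higher: the interleukin-1 antagonist gene Il1rn (0.70 ± 0.13), the adhesion genes Vcam1 (0.54 ± 0.12) and Sele (0.89 ± 0.22), and Tnf (0.78 ± 0.18). Il1b (0.18 ± 0.27) and Il6 (0.67 ± 0.41) did not pass. Vcam1, which holds leukocytes at the vessel wall, had 356, 290 and 325 CPM at CT16 against 196, 258 and 214 CPM at CT04. Of 13 T and NK lymphocyte markers 5 rose, among them Cd3d with 8.27, 7.34 and 6.89 CPM at CT16 and 4.79, 4.41 and 4.15 CPM at CT04 (0.75 ± 0.17). This list fell to 1 call without any 1 of ADX CT04 replicates 1 and 3 and ADX CT16 replicates 1 and 3. Of 14 tested B lymphocyte markers 1 rose, the complement receptor gene Cr2, while Cd79a was at -0.08 ± 0.20.

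**Figure D5:**
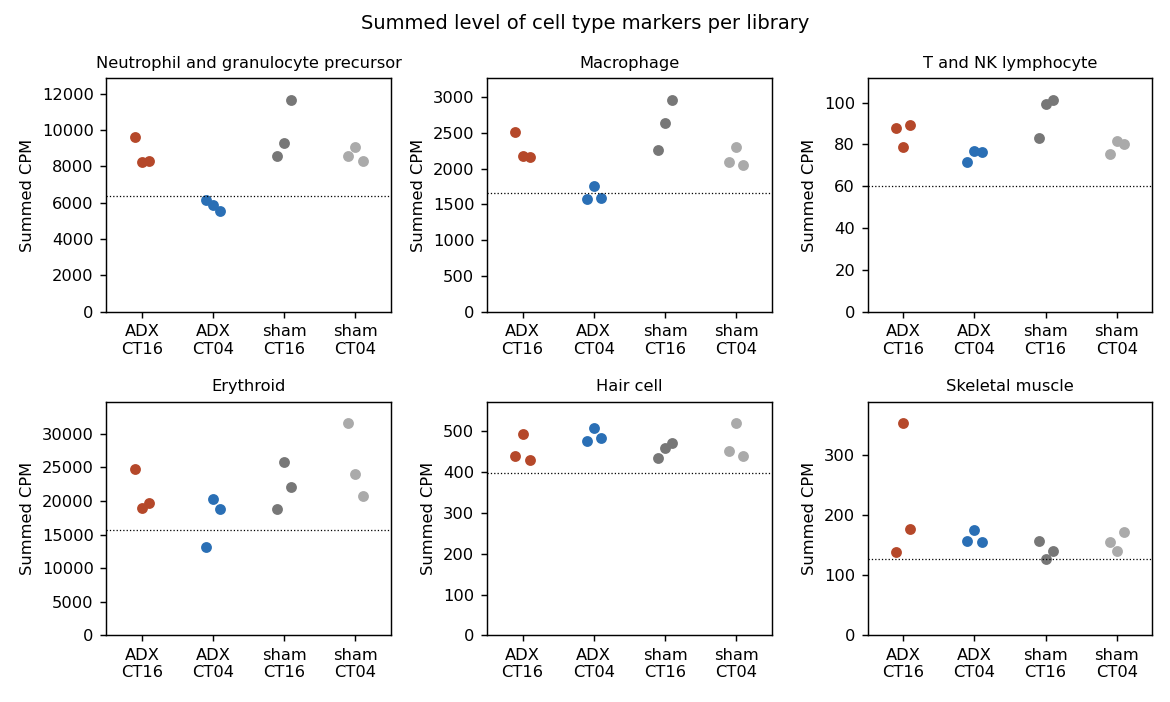
Summed CPM of 6 marker lists in each library of ADX CT16, ADX CT04, sham CT16 and sham CT04, with a dotted line at the lowest of the 30 libraries other than the 6 ADX ones. ADX CT04 lies below that line in all 3 libraries for neutrophil markers (5524 to 6157 CPM), while the hair cell sums of ADX CT16 (429.0 to 493.5 CPM) and ADX CT04 (475.6 to 509.0 CPM) overlap.

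Few markers of the cochlea's own cells were called. All tested genes were called at 8.12%, a share at which lists of this size hold few calls. None of 15 hair cell, 13 spiral ganglion neuron or 9 Schwann cell markers was called, and the summed hair cell level was 440.9, 493.5 and 429.0 CPM at CT16 and 475.6, 509.0 and 484.1 CPM at CT04. None of 18 genes of cochlear ion transport and gap junctions was called. Kcne1, a potassium channel subunit of the stria vascularis, had 111, 124 and 116 CPM at CT16 and 140, 129 and 162 CPM at CT04 (-0.30 ± 0.10, adjusted p = 0.0637). Esrrb, a nuclear receptor of the stria, was called at 0.34 ± 0.09, and passed in 1 of 6 fits with a library removed. Among fibrocyte markers Car3 (-0.67 ± 0.16) and Tbx18 (-0.41 ± 0.12) were lower (1 call without replicate 1 or 3 of either time), and among supporting cell markers Ceacam16, a tectorial membrane gene (-0.49 ± 0.15). The neurotrophin gene Ntf3, which supports spiral ganglion neurons, had 5.60, 5.93 and 4.52 CPM at CT16 and 2.55, 2.02 and 2.69 CPM at CT04 (1.14 ± 0.28, adjusted p = 0.0127).

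Of 26 collagen and matrix genes 7 were lower at CT16 and 0 higher, beside 2.91% of all genes called lower. Col9a1, a cartilage and tectorial membrane collagen, had 23.3, 26.7 and 23.0 CPM at CT16 and 48.2, 35.7 and 49.0 CPM at CT04 (-0.87 ± 0.17, adjusted p = 0.00218). Fbn1, which forms microfibrils, had 48.6, 61.8 and 53.5 CPM at CT16 and 98.4, 80.3 and 88.0 CPM at CT04 (-0.70 ± 0.13, adjusted p = 0.00113). The basement membrane chains Col4a1 and Col4a2 fell by 0.47 and 0.53, and Col3a1, Col6a1 and Col14a1 were also called. The bone collagen gene Col1a1 was at -0.14 ± 0.25. Leaving out 1 library gave 4 (without ADX CT04 replicate 1 or ADX CT16 replicate 1) to 8 called genes. Of the 26, 5 were called lower in sham, beside 2.72% of all tested genes.

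Xenobiotic and lipid genes moved in part. Of 18 P450 and flavin monooxygenase genes 6 rose, beside 5.2% of all genes called higher. These were Cyp2a5, Fmo2, Fmo1, Cyp4b1, Cyp1b1 and Alas1. Cyp2a5, a coumarin and nicotine hydroxylase (chromosome 7, 26835305 to 26843548; promoter above), had 4.44, 6.25 and 2.51 CPM at CT16 and 0.895, 1.05 and 0.823 CPM at CT04. Its log2 fold change of 2.23 ± 0.37 (adjusted p = 3.8e-04) headed the called genes whose libraries did not overlap, taken from a mean of 1 CPM upwards. Fmo2 had 33.8, 27.1 and 29.5 CPM at CT16 and 13.9, 13.9 and 12.5 CPM at CT04 (1.17 ± 0.17). Lpl, the lipase that frees fatty acids from lipoproteins, was lower, with 64.1, 75.6 and 65.5 CPM at CT16 and 103, 134 and 111 CPM at CT04 (-0.77 ± 0.15). Of 23 sterol and fatty acid synthesis genes 3 were lower, beside 2.91% of all genes called lower. These were Srebf1 (-0.25), Insig1 (-0.38) and Srebf2 (-0.15). The list held 0 lower calls without ADX CT16 replicate 1 or 3 and 1 without ADX CT04 replicate 2 or 3.

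The calls numbered 0 of 25 ribosomal protein genes, 0 of 23 genes of oxidative phosphorylation and 0 of 24 cell cycle genes, beside 8.12% of all tested genes, a share at which lists of this size hold few calls. Of 21 immediate early genes Fosl2 was called higher (0.46 ± 0.10) and Egr1 lower (-0.62 ± 0.14). Of 20 antioxidant genes Gsta3 (0.81 ± 0.17) and Prdx6 (0.16 ± 0.05) were higher, of which Prdx6 passed in 1 of 6 fits with a library removed and in 4 of 8 other settings. At unadjusted p under 0.05 the whole comparison held 5141 genes.

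Among protein-coding genes outside these lists, Spon2, a secreted matrix protein (chromosome 5, 33198184 to 33218455), had 3.23, 2.63 and 3.57 CPM at CT16 and 6.72, 8.34 and 9.09 CPM at CT04 (-1.35 ± 0.13, adjusted p = 6.9e-07). In sham it had a log2 fold change of -1.41. The alpha-2C adrenergic receptor gene Adra2c fell by 0.90 ± 0.14, the lysyl oxidase gene Loxl4 by 0.89 ± 0.16 and the uroplakin gene Upk1b by 0.96 ± 0.20. P2rx3, an ATP-gated channel of sensory neurons, had 2.90, 2.81 and 3.15 CPM at CT16 while the CT04 libraries held 10.8, 10.3 and 4.19 CPM (-1.51 ± 0.40, adjusted p = 0.0184), and passed in 2 of the 6 fits with a library removed. It overlaps Ssrp1 in the annotation. Dio2, which activates thyroid hormone, had 30.6, 34.2 and 29.4 CPM at CT16 and 69.0, 38.1 and 61.6 CPM at CT04 (-0.84 ± 0.21), and Wnt2b had 61.7, 59.1 and 58.5 CPM at CT16 and 13.9, 45.7 and 24.5 CPM at CT04 (1.08 ± 0.31). In both, ADX CT04 replicate 2 was the CT04 library nearest to CT16, and the call held in 3 and 2 of the 6 fits. Adra2c, Loxl4, Dio2 and Wnt2b were chosen after their values were seen, as were Fpr1 and Lyz1.

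Part of the higher calls were genes that do not code for proteins. Of 5832 such or unmatched genes 553 were called (9.48%), 478 higher and 75 lower. All 42 called small nuclear RNA genes and 133 of 136 called processed pseudogenes were higher. Several of these had values close to those of a neighbour or a host gene, and whether they share reads was not tested. Snord14c and Snord14d, for example, lie inside Hspa8 and had log2 fold changes of 0.67 and 0.66, close to the 0.65 of Hspa8. The olfactory receptor genes Olfr543 and Olfr544 held the same CPM in the 6 libraries (1.17, 1.77 and 1.84 at CT16, 0.313, 0.433 and 0.599 at CT04). Of 17600 genes at a mean of 1 CPM or more, 274 had counts within 5% of a separate gene nearby, and 56 of these were called (20.4%, beside 8.1% of the 17600), 55 of them higher. Within chromosome 11 from 59610585 to 60447184, 9 of 12 genes that do not code for proteins were higher, beside 478 of all 5832 such or unmatched genes. Among the 9 were Gm12266 and Gm12268 (1.80 and 1.77), and all 9 were called higher in sham too. The ends of this stretch were set at called genes, Olfr225 and Gm12268, so the count describes the stretch and tests nothing. Gm12266 lies inside Tom1l2, which was not called (-0.04). The U12 small nuclear RNA gene Rnu12 had 8.53, 9.10 and 8.59 CPM at CT16 and 2.78, 2.24 and 2.51 CPM at CT04 (1.80 ± 0.36). Single values of such genes are uncertain. With the same fit but the p-values adjusted over protein-coding genes only, the test called 1229 genes, 672 higher and 557 lower.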

How the data were processed

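RNA of cochleae was made into libraries of messenger RNA with a stranded kit and sequenced as single reads of 100 bases in pools of 6 libraries, per the labels' protocols. The sources used here do not say how libraries were assigned to pools, so a pool effect and a time cannot be told apart. The submitters' processing notes name STAR 2.4.0i and the build mm10. For the counting program, its annotation and its strand setting, nothing is named in these sources, so reads of overlapping or antisense genes may be shared. The deposited values are whole-number read counts per Ensembl gene for 39017 genes, not normalized by the authors. The times in 30 of the 36 column names are 1 h earlier than the labelled times, which were used. Symbols and coordinates come from GENCODE M21 (GRCm38), which matched 37693 IDs (96.6%).

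The counts were fitted in R 4.3.3 with edgeR 4.0.16 (TMM, filterByExpr, glmQLFit and glmQLFTest) as 12 group means over 36 libraries, with 24 residual degrees of freedom and Benjamini-Hochberg adjustment over the 22556 genes kept (threshold 0.05). The 16461 genes left out held 0.0779% of counts. CPM were computed from the kept genes and TMM library sizes (factors 0.981 to 1.03). No label ties a library to an animal of its own, so p-values reflect only how these samples vary, which may be technical. No replicate pair looked like 1 library deposited under different names: chi-square statistics divided by their degrees of freedom were 5.94 to 12.7.

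Named genes were the 12 highest and 12 lowest called genes from 1 CPM upwards with a symbol and no overlap, the clock genes, up to 4 genes per list, the 10 smallest p of the comparison and of the difference from sham, selected glucocorticoid genes and the first 3 markers of each cell type. Other list members are named to complete a count, and further protein-coding genes from 5 CPM upwards were added after their values were seen. The members and lists were chosen with earlier results of these data known. The ADX comparison was tried on simulated counts, and the tests of sham and of the difference were not. Among genes from 1 CPM upwards it recovered 40% of log2 changes of 0.3, 70% of 0.6, 84% of 1 and 94% of 2. Other settings tried were limma 3.58.1 voom, DESeq2 1.42.0, edgeR with size factors of DESeq2, no filter on low counts, a replicate block, a muscle covariate, fewer libraries in the fit and each library left out. Protein-coding genes only, and sham without its pituitary-high library, were added after seeing the data. Some listed genes are not reported here. Figures were drawn with matplotlib 3.10.9.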

Additional observations from a re-analysis of the deposited data

How the results depend on the processing

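Of the 1831 genes called in ADX, the count was 833 with the 6 ADX libraries of CT16 and CT04 alone (619 higher, 214 lower; 761 shared with the 1831), where fewer samples estimate the spread. It ranged from 710 (without ADX CT16 replicate 3) to 1697 (without ADX CT16 replicate 2) with 1 library left out, each time relying on the other groups for the spread of the smaller arm. The sham count of 1190 was 783 with no filter on low counts, the cause of which was not tested, and ranged from 501 (without sham CT16 replicate 3, the pituitary-high library) to 1068, with 518, 709 and 601 without sham CT04 replicates 1 and 3 and sham CT16 replicate 2. The difference between ADX and sham stayed at 0 calls in every setting run. The share of higher calls in ADX was 64.1%, and it was 74.3% with the 6 libraries alone, 54.1% without ADX CT04 replicate 2 and 54.7% among protein-coding genes only. Other settings gave 1403 (no filter) to 1859 (DESeq2 size factors) calls in ADX. Of 95 called named genes, 66 passed in every setting and in every fit with 1 library left out, and 0 reversed. With the replicate number as a block the counts were 1633 in ADX, 1016 in sham and 0 for the difference. The samples share only a number: deviations of same-numbered ADX libraries correlated at -0.24, 0.12 and 0.09 over 12708 genes, and replicate 1 of CT16 correlated best with replicate 3 of CT04 (0.30). Depth limits genes of low counts: 16461 genes were left out before testing.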

Other observations

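Interferon-stimulated genes, which cells switch on against viruses, had opposite signs in ADX and sham. Of 20 listed genes 19 had a positive log2 fold change in ADX (median 0.36) and 0 of 20 in sham (median -0.32). Still, 1 was called in ADX (beside 8.12% of all tested genes), 0 in sham and 0 for the difference. For the difference 11 of the 20 had an unadjusted p under 0.05, beside 4.67% of all tested genes. Mx1, an antiviral GTPase, was the called gene, with 8.01, 3.71 and 7.67 CPM in ADX CT16 and 2.82, 3.00 and 3.52 CPM in ADX CT04 (edgeR log2 fold change 1.06 ± 0.28, adjusted p = 0.02). It passed in 2 of the 6 fits with a library removed. Ifit1, another antiviral effector, had 63.0, 16.9 and 27.5 CPM in ADX CT16 and 17.6, 16.9 and 15.4 CPM in ADX CT04, so that replicate 1 of CT16 stood apart and the groups overlapped. The summed level of the list was 1005, 657.8 and 686.7 CPM in ADX CT16, 683.1, 596.6 and 620.7 CPM in ADX CT04, 659.2, 595 and 646.4 CPM in sham CT16 and 827, 671.7 and 652.1 CPM in sham CT04. In each of these groups, of either surgery and either time, replicate 1 held the highest sum.

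Haemoglobin and other erythroid genes were lowest at CT04 among the ADX times in 9 of 9 measured members, though none was called. Their summed level was 24700, 19020 and 19700 CPM in ADX CT16 and 13100, 20280 and 18770 CPM in ADX CT04, with replicate 1 of CT04 below the 15630 CPM of the lowest of the other 30 libraries. The receptor gene Ret, which binds the signal of neurotrophic factors of the GDNF family, had 5.94, 11.9 and 5.16 CPM in ADX CT16 and 40.0, 6.72 and 3.89 CPM in ADX CT04, where replicate 1 alone was high, and it was not called.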
